A study of Rattus norvegicus with 18 samples.

Results

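The 10 genes described here mark the steps by which oligodendrocyte precursor cells become myelin-forming oligodendrocytes. They were chosen by symbol, without reference to a threshold but with earlier results of these data known. The choice was made from 38445 genes counted in the rat ventral tegmental area, the midbrain region that holds dopamine neurons of the reward pathway. Pdgfra, Cspg4 and Vcan stand for early precursors, Olig1, Olig2, Sox10 and Myrf are transcription factors of the lineage, and Gpr17, Bcas1 and Enpp6 mark committed and maturing cells. RNA came from 18 adult male Sprague Dawley rats of genotype WT, in 3 groups of 6, with 1 library per rat. Control rats (numbered 1 to 6) received a Lieber-DeCarli liquid diet without ethanol, and chronic ethanol rats (7 to 12) received it with 9% v/v ethanol until they were taken (0 h). The withdrawal group (rats 13 to 18) had the ethanol diet and then 24 h without ethanol. The diets lasted 15 or 16 days.

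Oligodendrocyte precursors persist in the adult brain, where they divide, and where some of them leave the cycle and mature. Growth factor signals such as PDGF keep them in the precursor state. On commitment they lose PDGF receptor alpha, pass through a short stage marked by GPR17, and then switch on myelin genes under the control of MYRF and SOX10. The genes of that short stage are used as markers of how many cells are maturing at a given time.

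Libraries held 29.6 to 45.1 M counts (median 38.4 M), and the 10 genes had between 347 (Enpp6) and 55679 (Bcas1) counts in a library, so counting error was small beside the spread among rats. Values are CPM, counts scaled to a common library size with TMM factors. Markers of the region's dopamine neurons were present but uneven: the summed level of 12 markers ran from 1317 to 3884 CPM in control, from 568 to 3783 CPM in chronic ethanol and from 489.6 to 3238 CPM in withdrawal rats. Several libraries stood apart. Summed markers of neurons from outside the region were at 568 CPM in control rat 5, 417 and 473 CPM in chronic ethanol rats 7 and 8 and 830.5 CPM in withdrawal rat 13, against 33.4 to 131 CPM in the others. In rat 13 a single gene, Slc17a7, made up 810.2 CPM of that sum, and no other gene of the list was above its control median. Slc6a3, the dopamine transporter, was at 68.2 CPM in rat 8 and 2.56 CPM in withdrawal rat 17. Rats 5, 8, 13 and 17 were also left out together as an alternative, which kept rat 7. In rat 13, all 8 markers of the pineal gland, a neighbouring organ, had their highest level, with a sum of 16886 CPM against at most 17.5 CPM in the other libraries. The index read from the library names is shared by rats 1 to 8, by rats 9 to 16 and by rats 17 and 18, so no index holds both control and withdrawal rats, and these 2 groups cannot be told apart from their indices.

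The sequences upstream of a steady precursor gene (Pdgfra), a further precursor gene (Cspg4) and the most variable gene of maturing cells (Enpp6) show that the stretches before these genes differ in composition. RefSeq's promoter table (build GRCr8) matched 6 of the 10 genes. Each line runs 5′ to 3′ on the gene's strand and holds the bases of the 250 before the annotated start that no annotated transcript of the gene covers. They lie at chr14:33408605-33408766 (minus strand), chr8:66160692-66160941 (plus strand) and chr16:52026790-52026978 (minus strand). Capitals mark the letters CANNTG, which OLIG-type factors can bind, and ACAANG, a core of SOX sites, searched on both strands with no overlap between them.
Pdgfra: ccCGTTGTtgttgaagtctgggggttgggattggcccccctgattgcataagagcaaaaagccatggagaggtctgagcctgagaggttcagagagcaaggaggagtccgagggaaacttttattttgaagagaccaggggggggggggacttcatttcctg
Cspg4: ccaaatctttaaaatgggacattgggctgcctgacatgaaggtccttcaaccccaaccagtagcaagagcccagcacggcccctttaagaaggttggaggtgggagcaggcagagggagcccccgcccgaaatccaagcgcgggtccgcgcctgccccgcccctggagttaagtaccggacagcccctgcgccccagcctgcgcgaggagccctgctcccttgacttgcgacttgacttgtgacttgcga
Enpp6: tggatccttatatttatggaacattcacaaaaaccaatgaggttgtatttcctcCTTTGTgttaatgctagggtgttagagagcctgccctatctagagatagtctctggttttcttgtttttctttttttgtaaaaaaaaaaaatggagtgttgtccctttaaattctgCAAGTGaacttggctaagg
The Pdgfra stretch of 162 bases held 1 match to ACAANG and none to CANNTG, the Cspg4 stretch of 250 bases held neither, and the Enpp6 stretch of 189 bases held 1 of each. Among 33469 promoter windows cut to 162, 250 and 189 bases, 50.8%, 65.5% and 55.9% held CANNTG, and 25.9%, 36.9% and 29.5% held ACAANG, so both motifs are common in such windows. The Cspg4 stretch was 62.0% GC and the Enpp6 stretch 35.4% GC. A match describes these letters only.

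Per kilobase of gene length, levels in control rats spanned from Bcas1 at the top to Cspg4 at the bottom. BCAS1 is a protein of early myelinating and mature oligodendrocytes, and its transcript stood at 373 ± 65.3 CPM per kb (SD, n = 6 in this and the following values). Olig1 followed at 80.1 ± 11.3, Myrf at 41.8 ± 3.72, Sox10 at 31.7 ± 4.68, Olig2 at 23.2 ± 2.35 and Pdgfra at 14.4 ± 1.36 CPM per kb. Gpr17 (10.7 ± 1.45 CPM per kb) and Enpp6 (10.7 ± 1.74) were level with each other, above Vcan (5.67 ± 0.616) and Cspg4 (5.12 ± 0.667). Neighbours whose control ranges overlapped were Myrf and Sox10, Pdgfra and Gpr17, Gpr17 and Enpp6, and Vcan and Cspg4. In withdrawal rats Gpr17 (7.00 ± 1.55 CPM per kb) stood below Enpp6 (7.94 ± 3.30), with overlapping ranges.

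**Figure D1:**
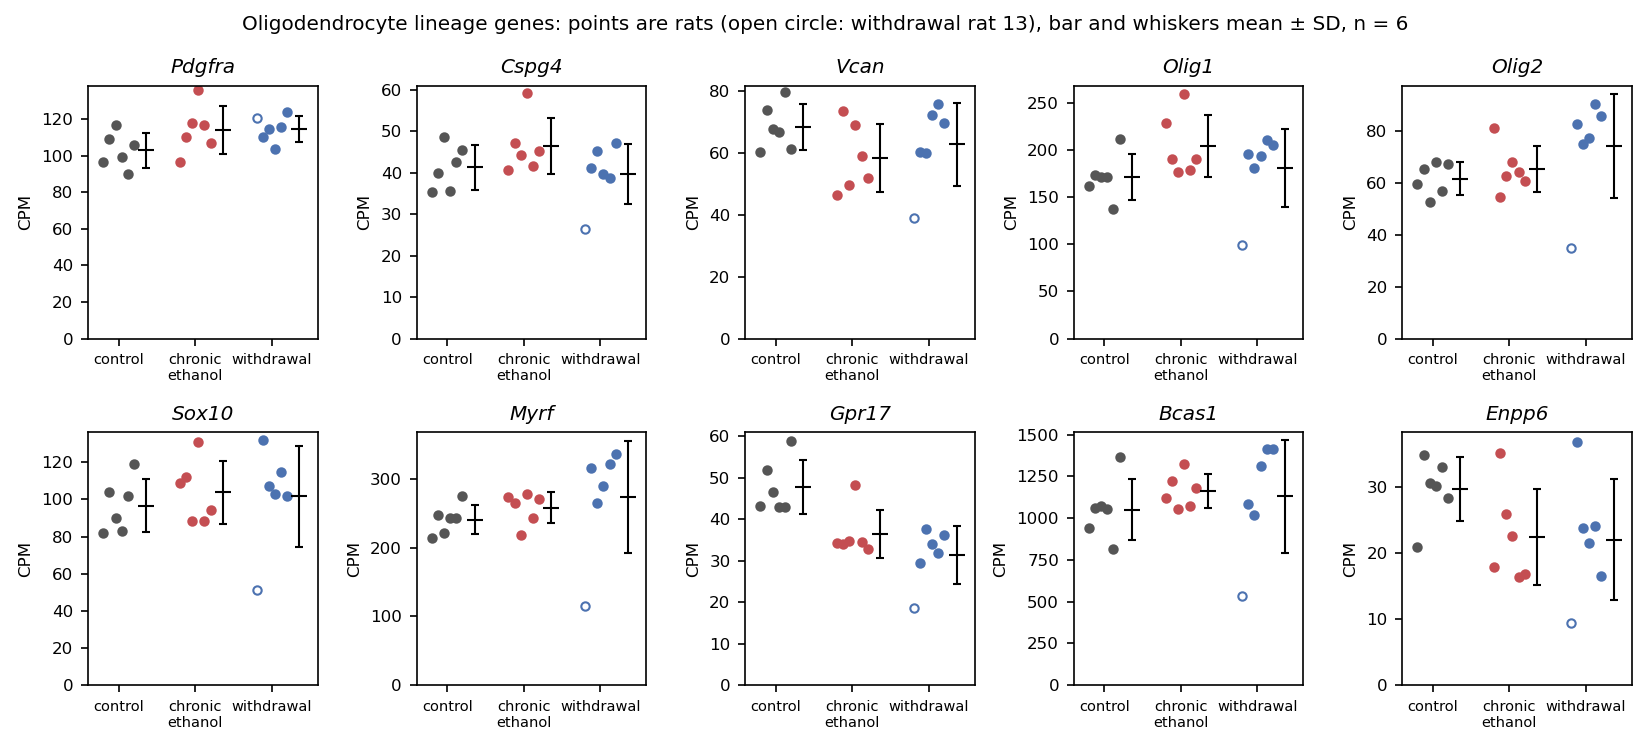
Level (CPM, vertical axes from 0) of the 10 lineage genes in each of the 18 rats, by group; points are rats, the open circle is withdrawal rat 13, and bars with whiskers are the mean and SD of 6 rats. For Gpr17 all 6 withdrawal rats (18.5 to 37.7 CPM) lie below all control rats (42.9 to 58.9 CPM), while rat 13 is the lowest of all 18 rats for every gene shown but Pdgfra.

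The group differences of the 10 genes did not pass the test across all 17637 genes tested. With edgeR's quasi-likelihood test and Benjamini-Hochberg adjustment, 0 of the 10 were called in chronic ethanol against control, where 0.00567% of all genes were called (1 gene). Of the 10, 0 were called in withdrawal against control and 0 in withdrawal against chronic ethanol, where 0% of all genes were called in each. At an unadjusted p under 0.05, Gpr17 alone passed against control in both ethanol groups, where 6.06% (chronic ethanol) and 9.94% (withdrawal) of all genes did so, and none of the 10 did in withdrawal against chronic ethanol (15.5% of all genes). DESeq2 called Gpr17 in withdrawal against control (adjusted p = 0.0290) and none of the others, where it called 0.275% of all genes. In chronic ethanol against control and in withdrawal against chronic ethanol it called 0 of the 10, beside 0.269% and 1.76% of all genes. In all 3 comparisons limma-voom called none of the 10. The comparisons with control use the same 6 control rats, so their values stand side by side below and are not independent. In bulk tissue, fewer cells of a type and less RNA per cell cannot be told apart. Where a count of rats outside the control range stands below without a share of all genes, that share was not counted.

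Differences between groups were small for the precursor genes. Pdgfra (gene 25267, Rnor_6.0 chr14:35527926-35581130, minus strand) encodes the PDGF receptor alpha, used here as a marker of the precursor. It ran from 90.2 to 117 CPM in control (median 103), from 96.4 to 136 in chronic ethanol (median 113) and from 104 to 124 in withdrawal rats (median 115). The groups overlapped, and 2 rats of each ethanol group lay above every control rat. Its log2 change was 0.15 ± 0.08 (SE) in chronic ethanol and 0.16 ± 0.08 in withdrawal against control (edgeR adjusted p = 0.856 and 0.516). The 95% interval of the latter, from -0.01 to 0.32, is the narrowest for a withdrawal change among the 10. Markers of fibroblasts of meninges and vessels (10 genes) summed to 83.6 to 711 CPM in control. Their sums were 78.3 to 183 CPM in chronic ethanol and 103 to 311 CPM in withdrawal rats. Within these groups the sum was highest in rats 3, 10 and 13, and Pdgfra was highest in rats 3, 10 and 18. The part of fibroblasts in the Pdgfra values was not tested.

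Cspg4 (gene 81651, chr8:61532465-61567510, plus strand) encodes NG2, the proteoglycan on the precursor's surface, and is also made by pericytes. Its level was 35.4 to 48.7 CPM in control (median 41.3), 40.7 to 59.3 in chronic ethanol (median 44.8) and 26.5 to 47.1 in withdrawal rats (median 40.4). The groups overlapped. The log2 change was 0.17 ± 0.12 in chronic ethanol and -0.06 ± 0.13 in withdrawal against control (edgeR adjusted p = 0.967 and 0.886), and without rat 13 the second became 0.04. The summed level of 8 pericyte markers was 191 to 306 CPM in control, 224 to 273 in chronic ethanol and 233 to 279.9 in withdrawal rats. The part of pericytes in the Cspg4 values was not tested.

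Vcan (gene 114122, chr2:18490102-18587340, minus strand) encodes versican, a matrix proteoglycan made by precursors and also by other cells. It ran from 60.2 to 79.5 CPM in control (median 67.2), from 46.5 to 73.6 in chronic ethanol (median 55.3) and from 38.8 to 75.7 in withdrawal rats (median 64.9). The lower ends separated more than the upper ends: 4 chronic ethanol and 3 withdrawal rats lay below every control rat. Against control its log2 change was -0.23 ± 0.14 and -0.12 ± 0.14 (edgeR adjusted p = 0.923 and 0.763).

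The 4 transcription factors had values above 0 in both comparisons with control, and none was called. Olig1 (gene 60394, chr11:31428377-31430519, plus strand), which acts with Olig2 in specifying and maturing the lineage, ran from 138 to 212 CPM in control (median 172), from 177 to 260.1 in chronic ethanol (median 191) and from 99.0 to 211 in withdrawal rats (median 195). Its groups overlapped, and 2 chronic ethanol rats lay above every control rat. The log2 change was 0.25 ± 0.15 in chronic ethanol and 0.08 ± 0.15 in withdrawal (edgeR adjusted p = 0.912 and 0.868).

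Olig2 (gene 304103, chr11:31389514-31392890, plus strand), its neighbour on the same chromosome and the factor that sets the lineage, had the widest gap of the 4 factors in withdrawal. It ran from 52.4 to 67.9 CPM in control (median 62.5), from 54.5 to 80.9 in chronic ethanol (median 63.5) and from 34.9 to 90.4 in withdrawal rats (median 79.8). Of the withdrawal rats, 5 lay above every control rat and rat 13 lay below them all. The log2 change in withdrawal was 0.27 ± 0.16 (edgeR adjusted p = 0.563), and without rat 13 it was 0.41 (the adjusted p was at least 0.148 with any 1 rat left out).

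Sox10 (gene 29361, chr7:120393238-120403523, minus strand), an activator of myelin genes present from precursor to mature cell, had overlapping groups. It ran from 81.9 to 119 CPM in control (median 96.1), from 88.1 to 131 in chronic ethanol (median 102) and from 51.2 to 132 in withdrawal rats (median 105). For Sox10 the log2 change was 0.10 ± 0.17 and 0.07 ± 0.17 (edgeR adjusted p = 1.00 and 0.892).

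Myrf (gene 293736, chr1:226260558-226292650, minus strand), the factor that starts and sustains myelin gene expression, is switched on as cells mature. It ran from 214 to 275 CPM in control (median 244), from 219 to 279 in chronic ethanol (median 268) and from 115 to 337 in withdrawal rats (median 303). In withdrawal, 4 rats lay above every control rat and rat 13 below. The log2 change was 0.10 ± 0.17 in chronic ethanol and 0.19 ± 0.17 in withdrawal (edgeR adjusted p = 1.00 and 0.695), the latter 0.34 without rat 13.

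Gpr17 had the largest difference of the 10 genes relative to its error. Gpr17 (gene 767613, chr18:24733306-24739194, minus strand) encodes a G protein-coupled receptor that appears in committed precursors and holds back their last maturation. It ran from 42.9 to 58.9 CPM in control (median 45), from 32.8 to 48.3 in chronic ethanol (median 34.4) and from 18.5 to 37.7 in withdrawal rats (median 33.0). All 6 withdrawal rats lay below every control rat, which 0.380% of all tested genes also showed. Of the chronic ethanol rats, 5 lay below every control rat (5 or 6 did so for 1.93% of all genes), with rat 10 among the control values. The group means were 47.7 ± 6.48, 36.4 ± 5.85 and 31.3 ± 6.95 CPM (SD, n = 6).

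The log2 change of Gpr17 was -0.39 ± 0.14 in chronic ethanol (edgeR adjusted p = 0.774) and -0.61 ± 0.14 in withdrawal (edgeR adjusted p = 0.296). Its 95% interval in withdrawal ran from -0.91 to -0.31, and its p ranked 30 among the 17637 genes. Between the ethanol groups the change was -0.22 ± 0.14 (adjusted p = 0.459), with overlapping groups. Without rat 13, the lowest, the withdrawal change was -0.49 (adjusted p = 0.148). Among rats with the same index, ethanol rats 7 and 8 lay below all 6 control rats, with a mean log2 difference of -0.48. Of all tested genes, 6.11% lay below all control rats in both of these rats, which are the ones with raised markers of neurons from outside the region, and the part of those markers was not tested. Within the second index, withdrawal rats 13 to 16 differed from ethanol rats 9 to 12 by -0.36 with overlapping ranges. Gpr17 lies inside Lims2 on the opposite strand, with 0 shared exon bases, and counting used strand. Lims2 stood at 7.15 ± 2.99 CPM in control and 4.88 ± 0.957 in withdrawal rats (log2 change -0.55 ± 0.21, edgeR adjusted p = 0.451). Control rat 3 was at 13.2 CPM, against 5.26 to 6.49 CPM in the other control rats and 3.19 to 5.90 CPM in withdrawal rats.

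Bcas1 (gene 246755, chr3:167957994-168033462, minus strand) showed no such gap. It ran from 817 to 1369 CPM in control (median 1055), from 1055 to 1323 in chronic ethanol (median 1151) and from 533 to 1416 in withdrawal rats (median 1196). All groups overlapped. Its log2 change was 0.15 ± 0.18 and 0.10 ± 0.18 (edgeR adjusted p = 1.00 and 0.846), with an interval in withdrawal from -0.27 to 0.48.

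Enpp6 (gene 306460, chr16:48315500-48437258, minus strand), a choline phosphodiesterase of newly forming oligodendrocytes, had the widest spread of the 10 over the 18 rats. It ran from 20.9 to 34.7 CPM in control (median 30.3), from 16.3 to 35.1 in chronic ethanol (median 20.2) and from 9.38 to 36.8 in withdrawal rats (median 22.6). The groups overlapped at both ends: 3 chronic ethanol rats and 2 withdrawal rats lay below every control rat, and 1 rat of each ethanol group lay above. The log2 change was -0.40 ± 0.25 in chronic ethanol and -0.43 ± 0.25 in withdrawal (edgeR adjusted p = 0.923 and 0.551). The first estimate is near that of Gpr17 and the second is smaller. Their intervals hold 0 and reach from -0.93 to 0.12 and from -0.96 to 0.10.

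**Figure D2:**
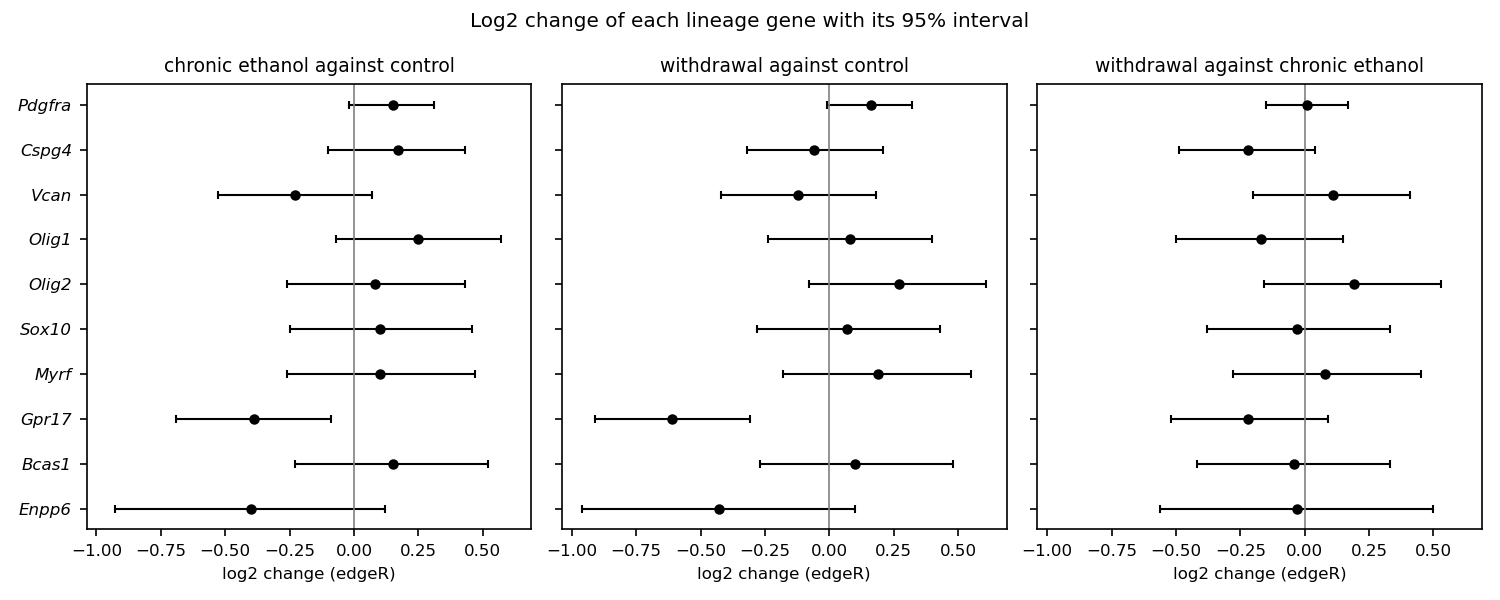
Log2 change of the 10 lineage genes (rows) in the 3 comparisons (panels), as points with 95% intervals from edgeR; the grey line marks no change. Against control, only the Gpr17 intervals exclude 0, before adjustment for the number of genes (-0.69 to -0.09 in chronic ethanol, -0.91 to -0.31 in withdrawal).

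Setting the maturing genes against the precursor genes within each rat removes only what both sets share in a library. In rat 13 the levels were shifted unevenly. Pdgfra, Cspg4 and Vcan stood at 117%, 64.1% and 57.8% of the control median there, and Gpr17, Bcas1 and Enpp6 at 41.0%, 50.6% and 31.0%. The mean log2 CPM of Gpr17, Bcas1 and Enpp6 minus that of Pdgfra, Cspg4 and Vcan was 0.64 to 0.98 in control (median 0.76), 0.36 to 0.64 in chronic ethanol (median 0.54) and -0.14 to 0.70 in withdrawal rats (median 0.54). In each ethanol group 5 rats lay below every control rat, and the group means were lower than control by a log2 difference of -0.25 and -0.35. Without rat 13, which was lowest at -0.14, the withdrawal difference from control was -0.24. The difference of withdrawal from chronic ethanol was -0.10, and 0.01 without that rat. No test was made of this score, since its genes were chosen with results known. Averaging logs gives each gene the same weight. The log2 ratio of summed CPM, which Bcas1 dominates, gave differences of 0.09 and -0.01, so the lower score came with Gpr17 and Enpp6 and not with Bcas1. Among rats with the first index, the chronic ethanol difference was -0.14 with overlapping ranges.

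Gpr17 was lower also against Pdgfra, Bcas1 and Sox10, in pairs picked after the values were seen. Set against Vcan or Enpp6, which were also lower on average in both ethanol groups, Gpr17 overlapped between control and each ethanol group. Gpr17 minus Pdgfra, in log2 CPM, was -1.33 to -0.85 in control (median -1.12), -1.76 to -1.49 in chronic ethanol (median -1.70) and -2.70 to -1.61 in withdrawal rats (median -1.81). Both ethanol groups lay wholly below control. Of all tested genes set against Pdgfra in this way, 0.964% (chronic ethanol) and 1.07% (withdrawal) lay wholly below control. Gpr17 minus Bcas1 was -4.61 to -4.25 in control (median -4.48), -5.17 to -4.77 in chronic ethanol (median -4.99) and -5.47 to -4.76 in withdrawal rats (median -5.23). Both ethanol groups again lay wholly below control, as 0.318% and 0.0567% of all genes set against Bcas1 did.

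Against Sox10, Gpr17 was -1.25 to -0.92 in control (median -0.98), -1.72 to -1.34 in chronic ethanol (median -1.48) and -2.16 to -1.47 in withdrawal rats (median -1.55), again without overlap with control (0.227% and 0.204% of all genes). Rat 10, whose Gpr17 level lay among the control rats, also had the highest Pdgfra, Cspg4 and Olig1 of all rats. Its Gpr17 was below the control range once set against Pdgfra, Bcas1 or Sox10. That rat stood apart beyond the lineage too. It had the highest summed markers of astrocytes (11557 CPM), microglia (729 CPM) and endothelium (621 CPM) of all rats, and the lowest of neurons (5486 CPM). Their part in its Gpr17 values was not tested. Enpp6 minus Bcas1 overlapped between groups (means -5.15 ± 0.36, -5.75 ± 0.41 and -5.72 ± 0.52, SD, n = 6), and Bcas1 minus Pdgfra stayed level (3.34 ± 0.19, 3.35 ± 0.16 and 3.23 ± 0.56).

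**Figure D3:**
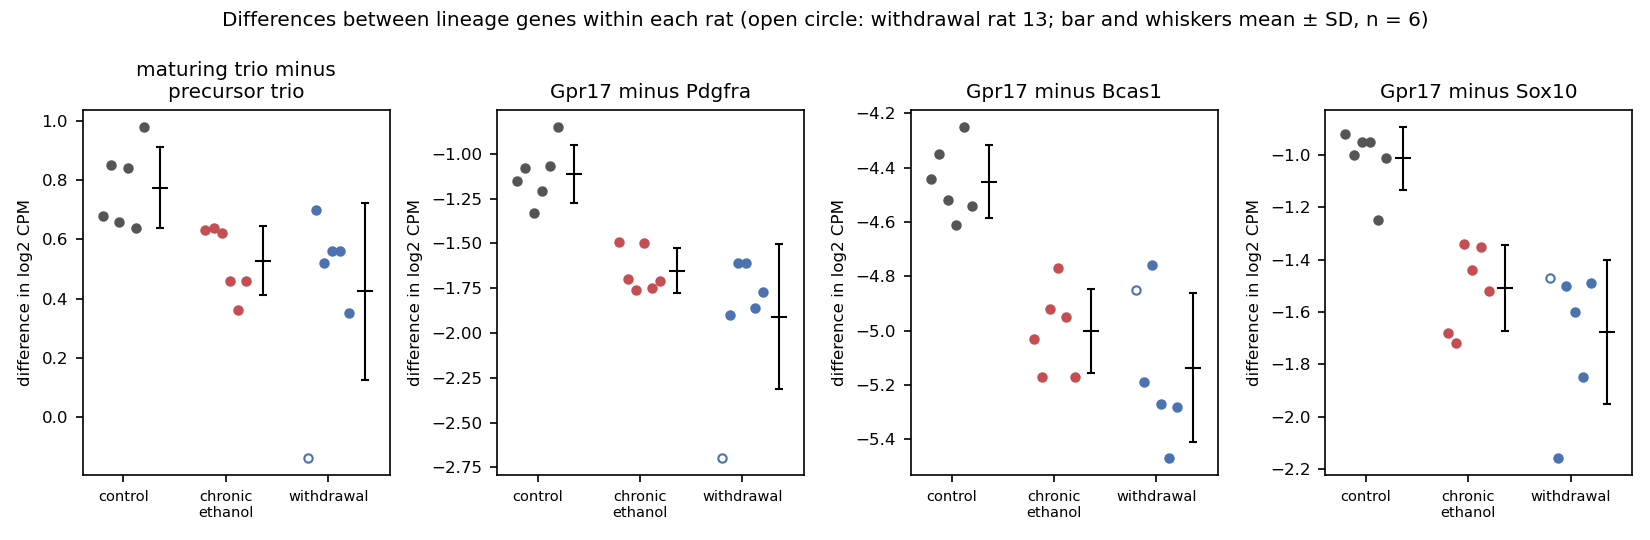
Difference in log2 CPM (vertical axes) between the maturing trio and the precursor trio, and between Gpr17 and Pdgfra, Bcas1 or Sox10, within each rat by group; points are rats, the open circle is withdrawal rat 13, bars with whiskers are mean and SD of 6 rats. In the 3 panels with Gpr17 the ethanol-fed rats of both groups lie below all 6 control rats, while the trio difference overlaps between groups.

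One rat set much of the spread. Withdrawal rat 13, the library with pineal transcripts, was the lowest of the 18 rats for all the genes but Pdgfra: it stood at 31.0% of the control median for Enpp6, 41.0% for Gpr17, 50.6% for Bcas1, 47.3% for Myrf and 64.1% for Cspg4, but at 117% for Pdgfra. All 24 mature myelin genes of a marker list were also lowest in that rat, with a sum of 19478 CPM against 35264 to 48240.3 CPM in control rats. How far other tissue in that library lowers the lineage genes was not tested. Over the other 17 rats the coefficient of variation was 10.2% for Pdgfra, 13.0% for Cspg4, 13.3% for Myrf, 20.4% for Gpr17 and 27.1% for Enpp6. These values pool the 3 groups, so differences between groups are part of them. Within control it was 13.6% for Gpr17, below Olig1 (14.1%), Sox10 (14.7%), Enpp6 (16.3%) and Bcas1 (17.5%).

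Across the 18 rats r was above 0 for 40 of the 45 pairs of genes, and a block of 5 genes varied together most closely. Olig1, Olig2, Sox10, Myrf and Bcas1 were correlated in all 10 of their pairs (Pearson r of log2 CPM 0.74 to 0.91, and 0.45 to 0.80 without rat 13). The block was not set beforehand but read from these correlations, so its values describe it and are not a separate test. Over the 45 pairs of the 10 genes, 21 had an adjusted permutation p under 0.05. The other 11 of these, outside the block, had r from 0.57 to 0.74, with Cspg4 and Olig1 and Cspg4 and Sox10 (both 0.74), Cspg4 and Bcas1 (0.69), Vcan and Enpp6 (0.67) and Sox10 and Enpp6 (0.62) among them. Without the 2 rats farthest from the median their r was 0.02 to 0.36, so these relations rest on those rats, and by Spearman's rho 0 of the 11 had an adjusted p under 0.05, against 8 of the 10 pairs in the block. Olig1 and Bcas1 had r = 0.91 (permutation p = 1e-05, adjusted p = 0.000225) and Spearman's rho = 0.86 (permutation p = 4.00e-05, adjusted p = 0.000450). Without the 2 rats farthest from the median of Olig1, r was 0.82, and within the indices of 8 rats each it was 0.84 and 0.95. For Olig2 and Myrf r was 0.90 (permutation p = 1e-05, adjusted p = 0.000225) and rho was 0.83 (permutation p = 2.00e-05, adjusted p = 0.000450), with r = 0.75 without the 2 farthest rats, and 0.55 and 0.96 within the indices. The p of 1e-05 is the smallest that 100000 permutations can give.

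How closely Gpr17 followed the block depended on the group means and on rat 13. Over the deviations from group means without rat 13, pairs within the block had r from 0.24 (Olig2 and Sox10) to 0.77 (Olig1 and Bcas1). The r of Gpr17 with the 5 block genes was 0.18 to 0.66 on that same measure. It was 0.28 to 0.50 over the 18 rats, -0.40 to -0.04 over the rats without rat 13, and 0.72 to 0.86 over the deviations with rat 13 kept. With Cspg4 r was 0.58 (permutation p = 0.0188, adjusted p = 0.0402) and 0.85 over those deviations, with rho = 0.33 (permutation p = 0.180, adjusted p = 0.423), and r was 0.02 without rats 10 and 13 and 0.05 and 0.97 within the indices. With Vcan r was 0.58 (permutation p = 0.0137, adjusted p = 0.0343) and 0.61 over the deviations, with rho = 0.29 (permutation p = 0.234, adjusted p = 0.501), and r was 0.21 without rats 7 and 13 and 0.24 and 0.79 within the indices. Its highest r with another of the 10 genes over the 18 rats was with Enpp6, at 0.60 (permutation p = 0.00970, adjusted p = 0.0273), with rho = 0.25 (permutation p = 0.308, adjusted p = 0.584). Without rats 6 and 13, the farthest from the median of Gpr17, r was 0.27, so these 3 relations of Gpr17 rest on the rats left out, and within the indices it was 0.30 and 0.59. Over the deviations it was 0.45. With Bcas1, r was 0.49 (permutation p = 0.0522, adjusted p = 0.0978) and rho -0.05 (permutation p = 0.850, adjusted p = 0.933). Without rats 6 and 13 that r was -0.34, and within the indices it was 0.16 and 0.88. Pdgfra had 0 of 9 pairs with an adjusted p under 0.05 (r from -0.27 to 0.34). With Cspg4 it had r = 0.34 (permutation p = 0.169, adjusted p = 0.223) and rho = 0.42 (permutation p = 0.0863, adjusted p = 0.277). That r was 0.15 without rats 5 and 10, 0.69 without rat 13, and 0.59 and 0.31 within the indices.

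**Figure D4:**
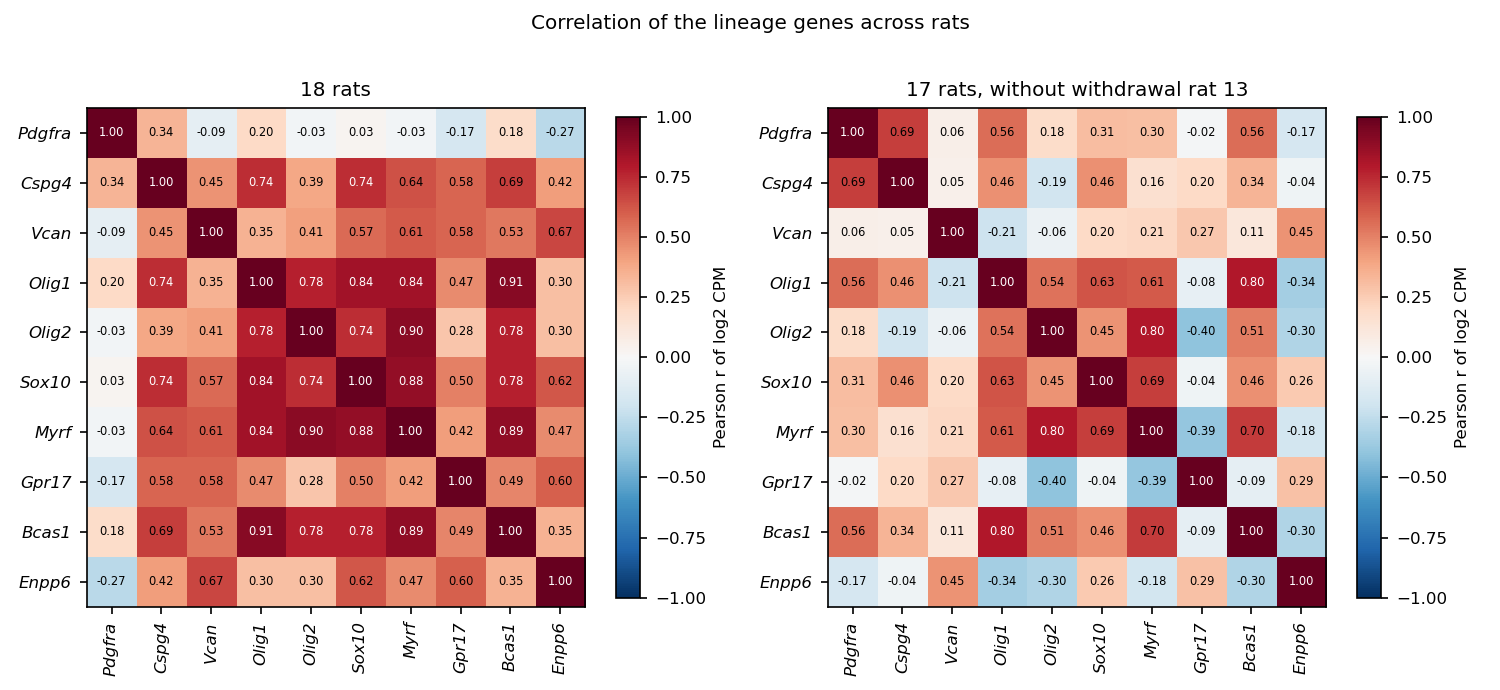
Pearson r of log2 CPM (colour and number, from -1 to 1) for each pair of the 10 lineage genes, over 18 rats on the left and over 17 rats without withdrawal rat 13 on the right. Olig1, Olig2, Sox10, Myrf and Bcas1 form a block with r from 0.74 to 0.91 that falls to 0.45 to 0.80 without rat 13.

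The genes whose level followed Pdgfra most closely, of 15019 compared over 18 rats, were Lpcat3 (r = 0.81), Amotl2 (0.78), Tpt1 (0.77), Rps12 (0.77) and Hey2 (0.77). Those closest to Gpr17 were Pmel (r = 0.85), LOC108352949 (0.84), Gatc (0.83), Cyren (0.83) and Nfasc (0.82). Over the deviations from group means r was 0.85 for Pmel, 0.77 for LOC108352949, 0.90 for Gatc, 0.66 for Cyren and 0.81 for Nfasc. Without rats 5, 8, 13 and 17 it was 0.68, 0.85, 0.70, 0.71 and 0.81 in the same order. Nfasc, the neurofascin of nodes and paranodes, is the only one of the 5 on the list of committed and newly formed oligodendrocytes. These values are descriptions of the highest of many.

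Around the 10 genes, 6 lists of lineage genes held no gene called by edgeR in any comparison. DESeq2 and limma-voom were run on all genes and read for the genes named here. Of 21 other precursor genes tested, the median log2 change was 0.05 in chronic ethanol and -0.03 in withdrawal against control, beside -0.00 and 0.02 over all genes. At an unadjusted p under 0.05, 2 and 3 of them passed, beside 6.06% and 9.94% of all genes. Matn4, a matrix protein, stood at 4.35 to 7.71 CPM in control and 3.79 to 5.23 in chronic ethanol rats, which overlapped (log2 change -0.51 ± 0.17, edgeR adjusted p = 0.640). Bcan, the matrix proteoglycan brevican that astrocytes also make, was 294 to 362 CPM in control and 387 to 541 in chronic ethanol rats, without overlap (0.522% of all genes lay wholly above control). Its log2 change was 0.36 ± 0.15 (edgeR adjusted p = 0.792) in chronic ethanol and -0.03 ± 0.15 in withdrawal.

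Of 22 other genes of committed and newly formed oligodendrocytes, 18 had a value below 0 in chronic ethanol and 14 in withdrawal against control. Their medians were -0.12 and -0.05, beside -0.00 and 0.02 over all genes, and the share of all genes below 0 was not counted. At an unadjusted p under 0.05, 1 and 3 of the 22 passed, beside 6.06% and 9.94% of all genes. Casr, the calcium-sensing receptor, was scarce: it ran from 1.86 to 3.99 CPM in control (median 2.41), from 0.466 to 2.01 in chronic ethanol (median 1.45) and from 0.594 to 1.39 in withdrawal rats (median 1.00). All 6 withdrawal rats lay below every control rat (0.380% of all genes did). The log2 change was -0.99 ± 0.30 in chronic ethanol and -1.31 ± 0.31 in withdrawal (edgeR adjusted p = 0.565 and 0.296), and DESeq2 called the latter (adjusted p = 0.0290, with 0.275% of all genes called). Kif19, a kinesin, had a withdrawal change of 3.40 that rested on rat 13 (485 CPM there), and -0.25 without it.

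The 24 mature myelin genes gave medians of -0.08 in chronic ethanol and -0.02 in withdrawal. Of these 24, 18 and 14 had a value below 0. Of them, 0 and 1 had an unadjusted p under 0.05, beside 6.06% and 9.94% of all genes. Ugt8, an enzyme of myelin galactolipid synthesis, stood at 401 ± 49.9 CPM in control and 301 ± 70.1 in chronic ethanol rats (SD, n = 6). Of the latter, 5 lay below every control rat (5 or 6 did so for 1.93% of all genes). The log2 change of Ugt8 was -0.42 ± 0.22 (edgeR adjusted p = 0.856). Hapln2, a matrix link protein at nodes, stood at 344 ± 31.1 CPM in control and 433 ± 41.3 in chronic ethanol rats, and 5 of the latter lay above every control rat (log2 change 0.33 ± 0.16, edgeR adjusted p = 0.851). These 2 myelin genes thus had values of opposite sign.

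Among 26 regulators of differentiation the medians were 0.02 and 0.10. Of them, 0 and 2 had an unadjusted p under 0.05, beside 6.06% and 9.94% of all genes. Yy1, a factor that represses inhibitors of maturation, was 30.5 ± 3.74 CPM in withdrawal and 25.4 ± 1.29 in chronic ethanol rats (SD, n = 6), without overlap (0.811% of all genes lay wholly above), with a log2 change of 0.27 ± 0.07 (edgeR adjusted p = 0.131, DESeq2 0.0199). Rxrg, a retinoid receptor, had a withdrawal change of 3.71 that rested on rat 13 (187 CPM there), and 0.12 without it.

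Among 16 PDGF and other growth factor genes the medians were 0.05 and 0.01. Of them, 3 and 1 had an unadjusted p under 0.05, beside 6.06% and 9.94% of all genes. Igf1r, the receptor for IGF1, a survival and maturation factor of the lineage, ran from 48.1 to 59.8 CPM in control (median 52.6), from 56.8 to 61.4 in chronic ethanol (median 59.9) and from 57.3 to 77.6 in withdrawal rats (median 65.9). Of the withdrawal rats, 5 lay above every control rat, and the log2 change was 0.32 ± 0.07 (edgeR adjusted p = 0.282, DESeq2 0.0154). Fgfr3, also an astrocyte gene, stood at 204 ± 7.85 CPM in control, 253 ± 18.5 in chronic ethanol and 203 ± 34.9 in withdrawal rats (SD, n = 6), and all 6 chronic ethanol rats lay above every control rat, as 0.522% of all genes did (log2 change 0.31 ± 0.09, edgeR adjusted p = 0.565). The summed level of 10 astrocyte markers, Fgfr3 among them, was 7601 to 10112 CPM in control, 7245 to 11557 in chronic ethanol and 4589.9 to 9344 in withdrawal rats, and its part in the Fgfr3 and Bcan values was not tested.

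The 18 cell cycle genes, which dividing cells of any kind use, had a median of -0.35 in chronic ethanol against control, beside -0.00 over all genes. Of the 18, 16 had a value below 0 and 2 had an unadjusted p under 0.05 (6.06% of all genes). In withdrawal the median was 0.10 against control (0 at an unadjusted p under 0.05, beside 9.94% of all genes). Against chronic ethanol it was 0.33 (5 at an unadjusted p under 0.05, beside 15.5% of all genes). Withdrawal rat 14 stood apart, with Top2a at 8.64 CPM and Mki67 at 5.36 CPM, against at most 0.574 and 0.738 CPM in the other withdrawal rats. Without rat 14 the medians were -0.19 against control (4 at an unadjusted p under 0.05, beside 11.7% of all genes) and 0.07 against chronic ethanol (5, beside 16.1%), and -0.35 in chronic ethanol against control (6, beside 5.98%), so the direction in withdrawal against control turned with that library. Mcm6, of the DNA replication helicase, ran from 5.25 to 6.94 CPM in control (median 6.05), from 3.75 to 5.36 in chronic ethanol (median 4.47) and from 4.84 to 7.56 in withdrawal rats (median 6.82). Its log2 change was -0.44 ± 0.13 in chronic ethanol against control (edgeR adjusted p = 0.510) and 0.55 ± 0.13 in withdrawal against chronic ethanol (edgeR adjusted p = 0.0930, DESeq2 0.00394). Bub1, of the spindle checkpoint, ran from 2.20 to 3.01 CPM in control (median 2.45), from 1.20 to 2.14 in chronic ethanol (median 1.75) and from 1.86 to 3.34 in withdrawal rats (median 2.57). All 6 chronic ethanol rats lay below every control rat (0.408% of all genes did), with a log2 change of -0.56 ± 0.16 (edgeR adjusted p = 0.554).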

How the data were processed

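The deposited values are raw counts of read pairs per gene, made by the authors with featureCounts 1.5.0 on Rnor_6.0 alignments, by strand and without pairs that matched several genes, per the file headers. The submitters' processing notes also name STAR 2.5.2a, R 3.3.3 and limma. A RefSeq table gave symbols to 29322 of the 38445 genes. Of all 38445 genes, 17637 passed filterByExpr, the 10 lineage genes among them, and were fitted over all 18 libraries with edgeR 4.0.16 in R 4.3.3 (quasi-likelihood, TMM factors, legacy and robust settings off, two-sided, Benjamini-Hochberg over all genes, called at an adjusted p under 0.05). The SE is the size of the log2 change over the square root of F. DESeq2 1.42.0 and limma-voom 3.58.1 were alternatives. Log2 CPM used a prior count of 2. Correlations used 100000 two-sided permutations, adjusted over 45 pairs. In a library, 3 counts stood for 0.0666 to 0.104 CPM on the TMM scale, a floor that covers counting error only.

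The 10 genes, the 6 lineage lists and the marker lists were chosen with earlier results of these data known. Named from each list were up to 4 called genes, or else the 2 with the lowest p for any difference among groups. For Pdgfra and Gpr17 the 5 genes with the highest r and a mean of at least 1 CPM were named. Libraries were checked for copies, and scripts were tested on simulated data.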

Additional observations from a re-analysis of the deposited data

Results flagged for a closer look

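In groups of 6 rats a value was picked out where its gap to the nearest other rat took an unusually large share of the group's range (Dixon's 95% limit). Chance does this in about 1 of 20 groups, and 33 groups were looked at. Withdrawal rat 13 lay far below the other 5 rats of its group for Olig1 (99.0 CPM), Olig2 (34.9 CPM) and Myrf (115 CPM). It is the library with pineal transcripts. Chronic ethanol rat 10 lay far above its group for Cspg4 (59.3 CPM) and Gpr17 (48.3 CPM). Without rat 10 the log2 change of Gpr17 in chronic ethanol against control was -0.49, and that of Cspg4 was 0.08.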

How the results depend on the processing

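Of 900 values of the 10 genes under other settings, 876 kept direction and side of the threshold, 2 came to pass it and 22 changed sign. The 2 were Gpr17 in withdrawal against control, under DESeq2 (-0.61, adjusted p = 0.0290) and with the mean of the myelin genes as a term (-0.58, adjusted p = 0.0339). Gpr17 stayed negative in all settings run, at -0.67 to -0.49 in withdrawal and -0.49 to -0.32 in chronic ethanol against control with 1 rat left out. Counts of called genes moved with the method. In chronic ethanol against control the count of 1 became 46 with DESeq2, 6 with the myelin term, 2 with limma-voom, with only the 2 groups, with the index as a term or without rats 5, 8, 13 and 17, 0 with edgeR's legacy fit (added after seeing the data, as were the values without rat 14 for cell cycle genes and without rat 13 for deviations), and 0 to 4 with 1 rat left out (2 without rat 10 or 15, 4 without rat 13, 1 without rat 18, otherwise 0). In withdrawal against control 0 became 47 with DESeq2, 13 with the myelin term and 0 to 2 with 1 rat left out (1 without rat 3, 10 or 11, 2 without rat 13). In withdrawal against chronic ethanol 0 became 301 with DESeq2, 736 with the myelin term, 3 without those 4 rats, 90 at an adjusted p under 0.10 and 0 to 47 with 1 rat left out (47 without rat 18, 15 without 13, 13 without 11, 10 without 14, 5 without 15, 1 without 3 or 16). For any difference 0 became 298 with DESeq2, 221 with the myelin term, 65 without a filter, 2 with limma-voom, 4 without the 4 rats, 5 at 0.10 and 0 to 12 with 1 rat left out (12 without rat 13, 4 without 16 or 18, 2 without 10, 1 without 3 or 15). The trio difference of -0.25 in chronic ethanol was 0.09 from summed CPM and -0.38 without Vcan, and that of -0.35 in withdrawal was -0.01 from summed CPM. With the index as a term these changed sign: Pdgfra (-0.09) and Bcas1 (-0.07) in withdrawal against control, Pdgfra (-0.09), Myrf (-0.04), Enpp6 (0.17) and Hapln2 (-0.20) against chronic ethanol, Kif19 in chronic ethanol (0.17) and Ugt8 in withdrawal (0.03) against control. Without the 4 rats these did: Cspg4 (0.07), Bcan (0.10), Kif19 (-0.11), Rxrg (-0.07) and Fgfr3 (0.05) in withdrawal against control, and Pdgfra (-0.02), Sox10 (0.12), Bcas1 (0.07), Enpp6 (0.31) and Rxrg (-0.35) against chronic ethanol. Hapln2 was -0.01 against chronic ethanol under limma-voom, and Fgfr3 was 0.01 in withdrawal against control with the myelin term. With 1 rat left out, withdrawal against control ran from -0.12 to 0.04 for Cspg4, -0.02 to 0.21 for Sox10, -0.11 to 0.09 for Bcan, -0.25 to 3.63 for Kif19, -0.06 to 0.08 for Fgfr3 and -0.12 to 0.05 for Bub1. Withdrawal against chronic ethanol ran from -0.03 to 0.06 for Pdgfra, -0.12 to 0.11 for Sox10, -0.12 to 0.10 for Bcas1, -0.24 to 0.15 for Enpp6, -0.15 to 3.74 for Kif19, -0.08 to 0.18 for Hapln2 and -0.27 to 3.56 for Rxrg, and Kif19 in chronic ethanol against control ran from -0.27 to 0.05. The cause of these shifts was not tested. Gene levels of 1 to 3 CPM, such as Casr, are limited by depth more than the 10 genes. No paired analysis was possible because the rats are numbered 1 to 18 and the groups share no number.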
